A study of Mus musculus with 6 samples.

Results

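Chemokine ligand genes, which encode the small secreted proteins that guide leukocyte migration, were examined in LPS/IFN-γ-primed bone marrow-derived macrophages (BMDMs) with and without macrophage PKM2. They were taken by symbol: every gene of the count table whose symbol begins with Ccl or Cxcl and a digit, together with Cx3cl1, Xcl1, Pf4 and Ppbp. This gave 33 of the 23935 symbols in the table, of which 26 had enough counts to be tested and 7 did not. BMDMs were grown from marrow of PKM2FL/FL mice, whose Pkm gene is floxed, and of PKM2ΔMAC mice, which carry the same floxed gene and LysM-Cre. All cultures were kept for 7 days in M-CSF and then primed for 16 h with IFN-γ at 25 ng/mL together with LPS at 10 ng/mL, and 1 library was made for each of 3 mice per genotype. LysM-Cre is a Cre recombinase driven from the Lyz2 locus, which is active in neutrophils as well as macrophages, and the controls are littermates that lack it. Presence of Cre, loss of Lyz2 expression and deletion in Pkm therefore cannot be told apart. The age of the mice used for these cultures is not given in the sources used here.

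Chemokines bind G protein-coupled receptors on leukocytes and are named after the spacing of their first cysteines, which are adjacent in CC ligands, separated by a single residue in CXC ligands and by a longer gap in the CX3C ligand. CXC ligands with a Glu-Leu-Arg (ELR) motif just before these cysteines bind Cxcr2 and attract neutrophils, whereas many CC ligands attract monocytes, T cells or eosinophils. Macrophages make some of them constitutively in M-CSF, and others only after LPS has activated NF-κB or IFN-γ has acted on the cells.

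The coding stretch around the first cysteines shows how several of the members discussed here divide into these classes. Codons of the first pair of cysteines and, where present, of the ELR motif are in capitals, and the bases were read from GENCODE M21 on GRCm38. Of the 31 members for which the stretch was found, 16 were CC, 14 were CXC and 1 was CX3C, and 6 CXC members had the ELR codons.
Ccl7: gcatccacaTGCTGCtatgtcaag
Ccl12: ccagtcacgTGCTGTtataatgtt
Ccl8: ccagtcaccTGCTGCtttcatgta
Cxcl5: GAGCTGCGTTGTgttTGCttaaccgta
Cxcl1: GAGCTGCGCTGTcagTGCctgcagacc
Cxcl2: GAACTGCGCTGTcaaTGCctgaagacc
Cxcl3: GAGCTGCGCTGTcagTGCctgaacacc
Ppbp: GAACTGCGCTGCagaTGTacgaatacc
Cxcl10: acggtccgcTGCaacTGCatccatatc
Cx3cl1: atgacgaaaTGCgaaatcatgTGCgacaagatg

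On GRCm38, 12 members lie on chromosome 5 and 11 on chromosome 11, most of them in gene clusters. Ccl2, Ccl7, Ccl11, Ccl12 and Ccl8 lie in this order within 81.2 kb at chr11:82035571-82116799. The other CC cluster, at chr11:83525778-83664683, holds Ccl5, Ccl9, Ccl6, Ccl3 and Ccl4. The ELR ligands and platelet chemokines Cxcl5, Ppbp, Pf4, Cxcl3, Cxcl15, Cxcl1 and Cxcl2 lie at chr5:90759360-90905938, and the interferon-induced Cxcl9, Cxcl10 and Cxcl11 at chr5:92321347-92365485. The promoters of 23 members were found in the RefSeq table. Those of Cxcl5, Ccl2, Ccl7, Ccl4, Ccl5, Cxcl16, Cxcl11, Ccl24, Cxcl17 and Ccl11 were not found and so were not searched. In the 250 bases before the start site, both strands were searched for the GAS element of IFN-γ-responsive promoters (TTCNNNGAA), for the interferon-stimulated response element (ISRE, GAAANNGAAA) and for the kB consensus of NF-κB. Over all 32851 promoters of the table these were present in 7.02%, 2.98% and 7.25%. Among the members, Cxcl1, Cxcl2, Cxcl3, Cxcl10 and Ccl9 held a kB match, Cxcl10 and Cxcl14 held an ISRE match and Ccl17 and Cxcl14 held a GAS match. The promoter stretches of the ELR ligands Cxcl1, Cxcl2 and Cxcl3 and of Cxcl10 are shown, as textbook LPS and IFN-γ target genes that held matches. Other LPS- or interferon-induced members that were searched, Ccl3, Ccl12, Cxcl9 and Ccl8, held no match and are not shown. Capitals mark kB matches, 2 of which overlap in each of Cxcl1, Cxcl2 and Cxcl3, and in Cxcl10 also the ISRE match 213 bases before the start. A match is a run of letters and says nothing of binding in these cells. The sequences are from RefSeq on GRCm38.p6, each written along the strand of its gene. That of Cxcl3 is chr5:90785981-90786100 on the plus strand, that of Cxcl1 chr5:90891125-90891240 on the plus strand, that of Cxcl2 chr5:90903779-90903870 on the plus strand and that of Cxcl10 chr5:92348890-92349139 on the minus strand.
Cxcl3: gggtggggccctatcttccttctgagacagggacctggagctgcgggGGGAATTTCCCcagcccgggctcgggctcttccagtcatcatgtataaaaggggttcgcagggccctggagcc
Cxcl1: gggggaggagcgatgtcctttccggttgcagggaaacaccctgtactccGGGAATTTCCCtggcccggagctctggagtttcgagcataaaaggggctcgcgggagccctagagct
Cxcl2: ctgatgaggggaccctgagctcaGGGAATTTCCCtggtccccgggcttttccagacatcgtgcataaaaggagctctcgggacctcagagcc
Cxcl10: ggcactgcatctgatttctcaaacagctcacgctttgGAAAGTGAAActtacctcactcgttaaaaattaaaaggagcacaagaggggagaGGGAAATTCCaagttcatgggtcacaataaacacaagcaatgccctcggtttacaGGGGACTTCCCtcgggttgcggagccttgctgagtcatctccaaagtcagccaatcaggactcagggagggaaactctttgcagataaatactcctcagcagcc

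The 6 libraries held between 49957449 and 54524651 counts. Levels per gene are given in CPM, that is, as counts divided by the TMM-scaled size of the library. If counts were independent, a gene without a count could still have 3 counts, or between 0.0546 and 0.0604 CPM. This limit includes counting error alone. It is higher where both ends of a read pair are counted, as appears to be the case for most pairs. Pkm had a log2 fold change of -0.68 (SE 0.08) and Lyz2 of -9.29 (SE 0.13) in PKM2ΔMAC against PKM2FL/FL, with adjusted p of 0.00913 and 8.52e-09 from edgeR's quasi-likelihood test. Pkm was called in 11 of 17 alternatives, its fold change staying between -0.78 and -0.61, and its adjusted p rose to between 0.0754 and 0.0993 when any PKM2FL/FL library was left out and to between 0.118 and 0.156 in the fits on TPM. The 8 macrophage markers summed to between 8103 and 9320 TPM (a level corrected for transcript length and scaled to a common total) in a library, with Mertk lowest, from 81.8 TPM, and Csf1r, Adgre1 and Cd68 highest. Itgam, which neutrophils also carry, was the only called gene among them, with a log2 fold change of 0.43 (adjusted p = 0.00272, SE 0.04). PKM2ΔMAC replicate 2 lay farthest from its group mean for 10 of the 20 members with a mean of at least 1 CPM. Genes that LPS and IFN-γ are known to induce were low against the labelled priming. Nos2, which encodes inducible nitric oxide synthase, had between 2 and 26 counts in a library, Il12b between 2 and 6 and Il6 between 7 and 18. Levels of other response genes varied. Irf1 was between 47.8 and 52.6 TPM, Socs3 between 59.2 and 90.3 TPM, Tnf between 23.2 and 45.3 TPM and Gbp2 between 26.8 and 39.1 TPM. Lower levels were seen for Cd40, between 5.99 and 9.06 TPM, and Ptgs2, between 4.72 and 13.9 TPM. Il1b was between 3.24 and 5.90 TPM, Acod1 between 2.24 and 5.65 TPM and Marco between 0.57 and 2.89 TPM. No unprimed library was analysed here, so induction of any chemokine by the priming could not be measured.

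By edgeR's test, none of the 26 tested chemokine ligand genes reached an adjusted p under 0.05 between genotypes, whereas 68 of all 16516 tested genes, or 0.412%, did. The smallest adjusted p of a member was 0.234, for Ccl8. DESeq2 called 1 member, Ccl8, and 289 of 18825 genes, or 1.54%. At an unadjusted p under 0.05 there were 5 members, with Ccl7 and Cxcl5 higher and Ccl3, Ccl12 and Ccl8 lower in PKM2ΔMAC, which is 19.2% of those tested beside 9.83% of all genes. On the CPM scale, the genotypes did not overlap in 7 tested members, or 26.9%, beside 17.2% of all genes. In Ccl7, Cxcl5 and Ccl22 the PKM2ΔMAC libraries were above, and in Ccl3, Ccl5, Ccl12 and Ccl8 they were below. On the TPM scale Ccl3 and Ccl5 overlapped, and Ccl9 did not, with PKM2ΔMAC above. Whether these shares exceed those of all genes was not tested. Of the 26, 14 had a higher and 12 a lower fitted level in PKM2ΔMAC, their median log2 fold change was 0.05 beside -0.000212 for all genes, and 20 lay within 0.5 of 0. The 95% interval of 13 members lay wholly within a 2-fold change either way, and that of the other 13 reached a 2-fold change or more. Each exact permutation p given for a single gene is two-sided, on log2(CPM + 0.1), and cannot fall below 0.10 with 3 libraries against 3.

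**Figure D1:**
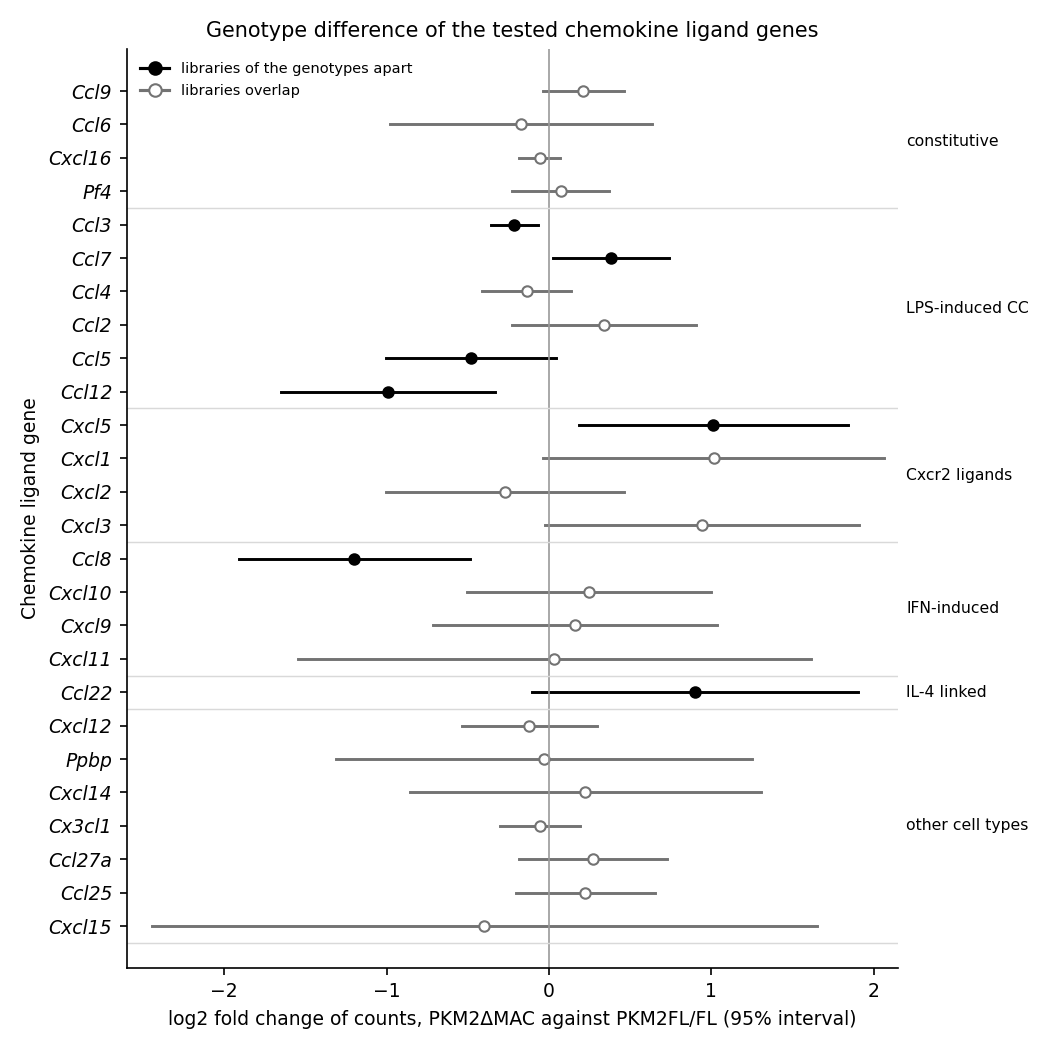
Log2 fold change of counts in PKM2ΔMAC against PKM2FL/FL BMDMs for the 26 tested chemokine ligand genes, by role (points, edgeR estimates; lines, 95% intervals). Filled points mark the 7 genes whose libraries did not overlap between genotypes in CPM, and the fold changes run from -1.20 for Ccl8 to 1.01 for Cxcl1 and Cxcl5.

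Levels between genes were compared on the deposited TPM values. In the mean over the 6 libraries, Cxcl12 was highest at 311 TPM, followed by Ccl9 at 296, Ccl6 at 235, Cxcl16 at 215, Ccl3 at 179, Pf4 at 147, Ccl7 at 127, Ppbp at 92.2, Ccl4 at 83.6 and Ccl2 at 70.1 TPM. These 10 genes made up between 92.4% and 94.5% of the summed chemokine TPM of a library. Cxcl5 at 43.5, Cxcl14 at 27.0 and Ccl5 at 10.1 TPM came next, and 12 members were under 1 TPM. Each neighbouring pair in this order from Cxcl12 to Cxcl14 overlapped in range over the 6 libraries, whereas the lowest Cxcl14 level, 17.4 TPM, was above the highest Ccl5 level, 14.3 TPM. The textbook IFN-γ target Cxcl10 had 6.54 TPM and Cxcl9 had 0.83 TPM in the mean. All chemokine ligands together summed to 1787, 1809 and 1870 TPM in PKM2FL/FL replicates 1 to 3 and to 1903, 1899 and 2015 TPM in PKM2ΔMAC replicates 1 to 3. The TPM sums did not overlap, but on the TMM-scaled CPM scale the members summed to 1362, 1537 and 1584 CPM in PKM2FL/FL and to 1475, 1352 and 1596 CPM in PKM2ΔMAC, which overlapped. TPM values add up to a fixed total in which Lyz2 and Pkm took between 46014 and 50779 TPM in PKM2FL/FL and between 804 and 996 TPM in PKM2ΔMAC, and on log2(TPM + 1) the median fold change of all genes with a mean of at least 1 TPM was 0.06.

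**Figure D2:**
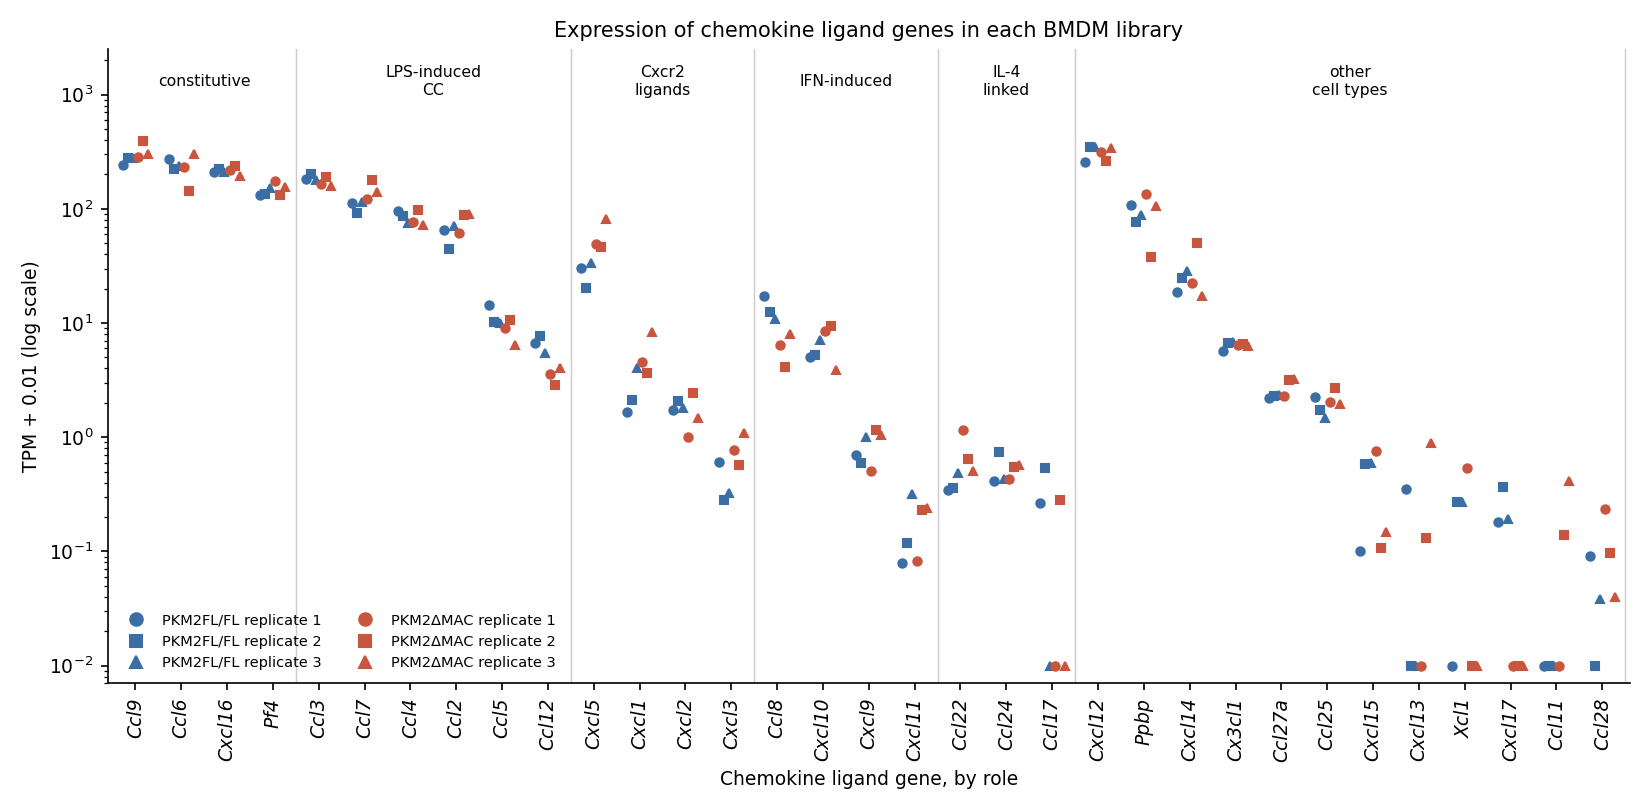
TPM plus 0.01 on a log scale for the 33 chemokine ligand genes in each of the 6 libraries (blue, PKM2FL/FL; red, PKM2ΔMAC; circle, square and triangle, replicates 1, 2 and 3), grouped by role, with values at 0.01 standing for 0. Constitutive ligands and Cxcl12 sit near the top, and Cxcl9 and Cxcl11 about or under 1 TPM.

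Ligands that macrophages make constitutively in M-CSF were abundant in both genotypes, and none of the 4 was called. Ccl9, a Ccr1 ligand that attracts myeloid cells, was at 214, 240 and 242 CPM in PKM2FL/FL and at 238, 311 and 256 CPM in PKM2ΔMAC replicates 1 to 3. The genotypes overlapped in CPM, with PKM2ΔMAC replicate 2 the highest library. Its log2 fold change was 0.21 (SE 0.11, 95% interval -0.04 to 0.46, adjusted p = 0.578). Ccl6, its neighbour and also a Ccr1 ligand, was at 141, 113 and 122 CPM in PKM2FL/FL and at 115, 66.8 and 152 CPM in PKM2ΔMAC. Here PKM2ΔMAC replicate 2 was the lowest of the 6 libraries and replicate 3 the highest, so that these adjacent genes lay on opposite sides in the same library. The log2 fold change of Ccl6, -0.17 (95% interval -0.98 to 0.63), became 0.09 without replicate 2.

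Cxcl16, a transmembrane ligand of Cxcr6 that also acts as a scavenger receptor for oxidised lipoproteins, was at 182, 191 and 181 CPM in PKM2FL/FL and at 182, 188 and 163 CPM in PKM2ΔMAC. The libraries overlapped, and its 95% interval, -0.19 to 0.07 on the log2 scale, was the narrowest of the members. Cxcl16 overlaps exons of Zmynd15 on the other strand, and use of strand in the counting is not stated. Pf4, known from platelet granules and also made by macrophages, was at 27.7, 27.5 and 31.3 CPM in PKM2FL/FL and at 35.1, 24.8 and 31.0 CPM in PKM2ΔMAC. PKM2ΔMAC replicates 1 and 2 were the highest and the lowest of its libraries, and the log2 fold change was 0.07 (95% interval -0.23 to 0.37). Summed over the 4 genes, levels were 564, 572 and 577 CPM in PKM2FL/FL and 569, 590 and 602 CPM in PKM2ΔMAC, which overlapped. The TPM sums, 858, 863 and 875 in PKM2FL/FL and 910, 901 and 958 in PKM2ΔMAC, did not overlap.

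Of the CC ligands that LPS induces through NF-κB, 6 were tested, none was called, and their fold changes pointed both ways. Ccl3, which attracts monocytes and T cells, was at 40.2, 43.5 and 39.7 CPM in PKM2FL/FL and at 34.8, 38.1 and 33.5 CPM in PKM2ΔMAC. On this scale each PKM2ΔMAC library was below each PKM2FL/FL library by a small margin, but in TPM PKM2ΔMAC replicate 2, at 190 TPM, was above PKM2FL/FL replicates 1 and 3, at 182 and 181 TPM. The log2 fold change was -0.21 (SE 0.06, 95% interval -0.36 to -0.07, unadjusted p = 0.00901, adjusted p = 0.326, exact permutation p = 0.10). Without PKM2ΔMAC replicate 2 the adjusted p was 0.0468, and over all alternatives it ran up to 0.725. Ccl4, the neighbouring gene, which also attracts T cells, was at 18.1, 16.0 and 14.2 CPM in PKM2FL/FL and at 13.9, 16.9 and 13.1 CPM in PKM2ΔMAC. These libraries overlapped, PKM2FL/FL replicate 1 being the highest, and the log2 fold change was -0.14 (95% interval -0.41 to 0.14). In the same cluster, Ccl5, which attracts T cells, monocytes and eosinophils, was at 3.95, 2.73 and 2.77 CPM in PKM2FL/FL and at 2.39, 2.69 and 1.69 CPM in PKM2ΔMAC. The genotypes did not overlap in CPM, but PKM2ΔMAC replicate 2 was barely below PKM2FL/FL replicate 2. Its log2 fold change was -0.48 (adjusted p = 0.542, SE 0.23). Markers of T and NK cells, which also make Ccl5, summed to between 1.09 and 2.26 TPM in a library over 7 genes. Cd3e, Cd3d and Cd3g each had at most 10 counts. The part of such cells in the Ccl5 level was not tested.

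In the cluster of Ccl2 and its neighbours, members lay on opposite sides within the same 81.2 kb. Ccl2, the main attractant of Ccr2-positive monocytes, was at 21.2, 14.3 and 23.1 CPM in PKM2FL/FL and at 19.2, 26.4 and 28.6 CPM in PKM2ΔMAC. PKM2FL/FL replicate 2 was lowest and the groups overlapped, with a log2 fold change of 0.34 (adjusted p = 0.703, SE 0.23). Ccl7, a further Ccr2 ligand next to it, was at 26.2, 20.6 and 26.6 CPM in PKM2FL/FL and at 26.7, 37.6 and 31.3 CPM in PKM2ΔMAC. All PKM2ΔMAC libraries of Ccl7 were above, although replicate 1 barely exceeded the highest PKM2FL/FL library. The log2 fold change of Ccl7 was 0.38 (SE 0.15, 95% interval 0.02 to 0.74, unadjusted p = 0.0407, adjusted p = 0.481, exact permutation p = 0.10).

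Ccl12 and Ccl8, which lie at the other end of this cluster, were lower in each PKM2ΔMAC library than in each PKM2FL/FL library. Ccl12, a mouse Ccr2 ligand related to Ccl2, had 55, 61 and 43 counts in PKM2FL/FL and 28, 22 and 30 counts in PKM2ΔMAC, or 1.02 ± 0.16 and 0.51 ± 0.10 CPM (SD, n = 3 each). The log2 fold change was -0.99 (SE 0.29, 95% interval -1.65 to -0.33), with an unadjusted p of 0.00812 and an adjusted p of 0.308 in edgeR's test. Ccl8, a CC ligand that interferons induce, was at 2.55, 1.79 and 1.57 CPM in PKM2FL/FL and at 0.90, 0.55 and 1.13 CPM in PKM2ΔMAC. The highest PKM2ΔMAC library of Ccl8 was at 1.13 CPM, below the lowest PKM2FL/FL library at 1.57 CPM. Its log2 fold change was -1.20 (SE 0.31, 95% interval -1.91 to -0.49), the largest of the members, with an unadjusted p of 0.00432, an adjusted p of 0.234 and an exact permutation p of 0.10. In DESeq2 the adjusted p was 0.0454, and over all alternatives the adjusted p of Ccl8 ran from there to 0.649. The levels were low beside those of Ccl2 and Ccl7, with mean TPM of 9.82 for Ccl8 and 5.06 for Ccl12. Together the 4 tested genes of the cluster, Ccl2, Ccl7, Ccl12 and Ccl8, summed to 202, 156 and 203 TPM in PKM2FL/FL and to 193, 275 and 244 TPM in PKM2ΔMAC, and these sums overlapped.

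**Figure D3:**
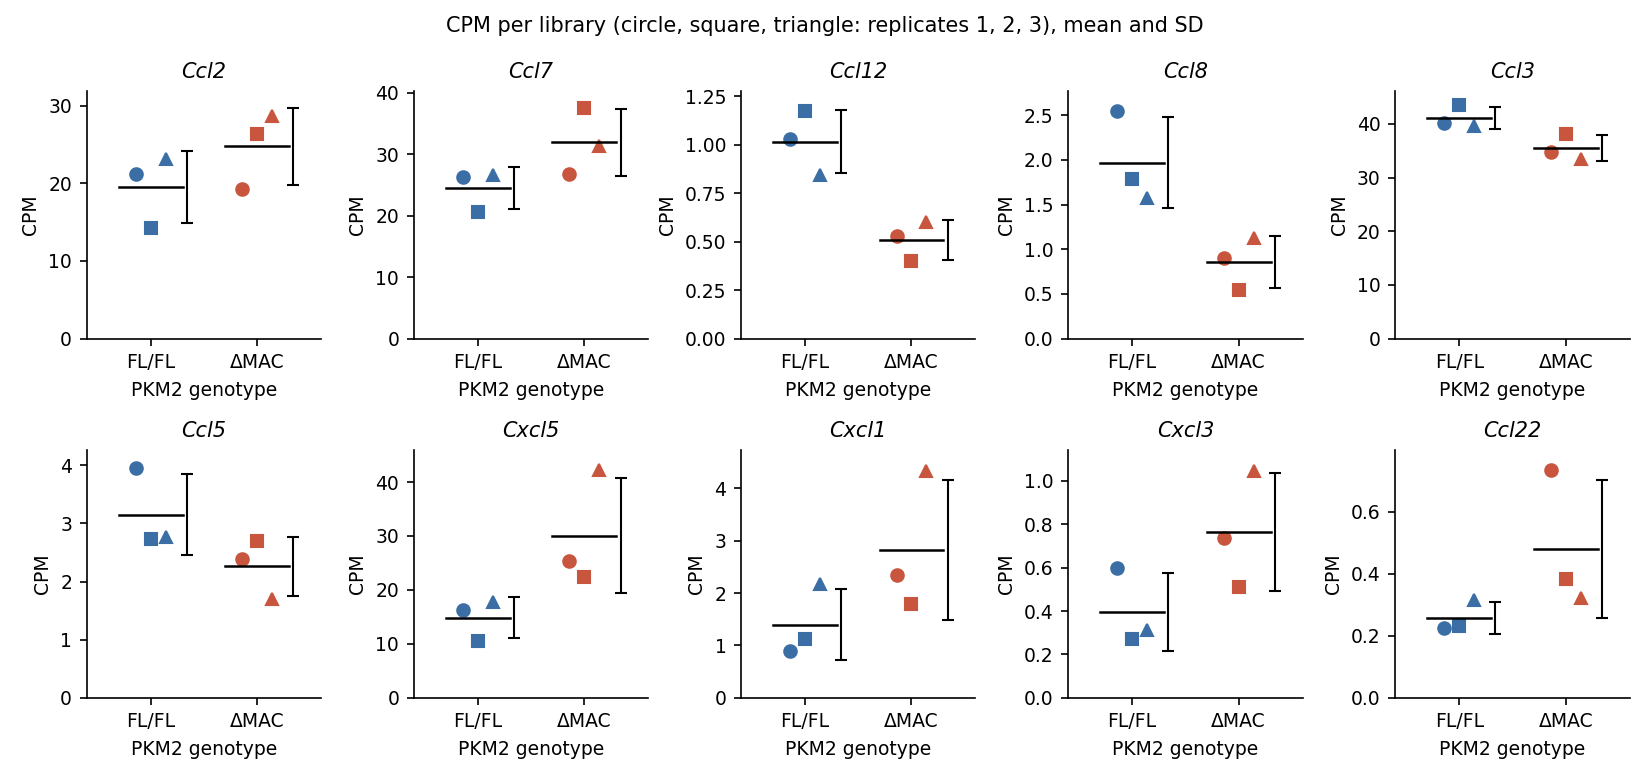
CPM of 10 chemokine ligand genes in each library (circle, square and triangle, replicates 1, 2 and 3), with the mean (horizontal line) and SD (bar) of each genotype and axes from 0. Ccl12 and Ccl8 are apart with the PKM2ΔMAC libraries below, Cxcl5 and Ccl7 with them above, and Ccl2, Cxcl1 and Cxcl3 overlap.

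Of the 4 CXC ligands of Cxcr2 that LPS induces and that recruit neutrophils, 3 had about 2-fold higher mean levels in PKM2ΔMAC, and none was called. Cxcl5 was the only one of them above 10 TPM. It was at 16.3, 10.6 and 17.8 CPM in PKM2FL/FL and at 25.4, 22.4 and 42.2 CPM in PKM2ΔMAC. All PKM2ΔMAC libraries were above, and replicate 3 stood well above the other two. The log2 fold change of Cxcl5 was 1.01 (SE 0.33, 95% interval 0.18 to 1.84, unadjusted p = 0.0256, adjusted p = 0.426, exact permutation p = 0.10). Its adjusted p ranged from 0.0347 to 0.727 over the alternatives, and with replicate number as a block it was 0.0347. Cxcl1, a major neutrophil attractant, was at 0.90, 1.12 and 2.16 CPM in PKM2FL/FL and at 2.34, 1.78 and 4.33 CPM in PKM2ΔMAC. PKM2FL/FL replicate 3 lay above PKM2ΔMAC replicate 2, and the log2 fold change was 1.01 (adjusted p = 0.519, SE 0.44). That of Cxcl1 was 0.57 without PKM2ΔMAC replicate 3 and 1.48 without PKM2FL/FL replicate 3. Cxcl3 had 32, 14 and 16 counts in PKM2FL/FL and 39, 28 and 52 counts in PKM2ΔMAC, also overlapping, with a log2 fold change of 0.94 (adjusted p = 0.517, SE 0.42).

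Cxcl2, the other ligand of this set, had 55, 62 and 54 counts in PKM2FL/FL and 30, 72 and 42 counts in PKM2ΔMAC. Its PKM2ΔMAC libraries lay on both sides of the controls, with a log2 fold change of -0.27 (adjusted p = 0.842, SE 0.32). Without PKM2ΔMAC replicate 2 this fold change was -0.63, and without PKM2ΔMAC replicate 1 it was -0.02. Whether it differs from those of Cxcl1 and Cxcl3 was not tested. Cxcl2 shares 5.35% of its 50-base stretches with Cxcl3 alone, and Cxcl3 shares 3.89% of its stretches with 38 genes, Cxcl2 among them. This makes a small part of their counts uncertain. Summed TPM of Cxcl1, Cxcl2, Cxcl3 and Cxcl5 was 34.3, 24.6 and 39.4 in PKM2FL/FL and 55.9, 52.5 and 92.5 in PKM2ΔMAC, without overlap. Most of each sum was Cxcl5, at 30.3, 20.1 and 33.3 TPM in PKM2FL/FL and 49.6, 45.9 and 81.6 TPM in PKM2ΔMAC, whereas Cxcl1, Cxcl2 and Cxcl3 each overlapped. Without Cxcl5 the highest PKM2FL/FL sum, 6.13 TPM, was barely below the lowest PKM2ΔMAC sum, 6.28 TPM. Neutrophil markers lay on the same side. All 8 of the 8 listed, among them S100a8, S100a9, Ngp and Ltf, had a higher fitted level in PKM2ΔMAC, although none was called and the smallest adjusted p was 0.213 in edgeR's test. Their summed TPM was 68.6, 119 and 168 in PKM2FL/FL and 469, 323 and 659 in PKM2ΔMAC, and none was at 0 in a library. Elane, Mpo and Mmp8 overlapped between genotypes in CPM, and Mmp8 was highest in PKM2ΔMAC replicate 2, at 26.4 CPM. Itgam, listed with the macrophage markers but carried by neutrophils too, was called. It was at 197, 193 and 197 CPM in PKM2FL/FL and at 253, 271 and 266 CPM in PKM2ΔMAC. Adgre1, another macrophage marker, also did not overlap, at between 1666 and 1725 CPM in PKM2FL/FL and between 1883 and 2235 CPM in PKM2ΔMAC. Its log2 fold change was 0.26, and it was not called (adjusted p = 0.236 in edgeR's test). Of the 8 macrophage markers, 3 had a higher and 5 a lower fitted level in PKM2ΔMAC. PKM2ΔMAC replicate 3 had the highest summed TPM of both the 4 ligands and the 8 neutrophil markers. In such bulk samples a different number of cells and a different amount of RNA per cell cannot be told apart, and the part of neutrophils in the difference of these ligands was not tested. The receptor Cxcr2, which neutrophils carry, had between 10 and 43 counts in a library.

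Ligands induced by interferon were low. Cxcl10, which attracts T and NK cells through Cxcr3, was at 3.26, 3.35 and 4.60 CPM in PKM2FL/FL and at 5.27, 5.55 and 2.44 CPM in PKM2ΔMAC. PKM2ΔMAC replicates 1 and 2 were the highest and replicate 3 the lowest of the 6 libraries, and the log2 fold change was 0.25 (SE 0.32, 95% interval -0.50 to 1.00, adjusted p = 0.854). Exons of Art3 on the other strand overlap Cxcl10. Cxcl9, the Cxcr3 ligand most dependent on IFN-γ, had 32, 26 and 44 counts in PKM2FL/FL and 22, 50 and 43 counts in PKM2ΔMAC. Its libraries overlapped, with a log2 fold change of 0.16 (95% interval -0.72 to 1.03). Cxcl11, annotated in GENCODE M21 as a polymorphic pseudogene, had between 4 and 17 counts. Summed TPM of the 3 Cxcr3 ligands was 5.78, 5.97 and 8.44 in PKM2FL/FL and 9.07, 10.8 and 5.16 in PKM2ΔMAC, which overlapped, unlike Ccl8 of the same list. At these counts the 95% interval of Cxcl11 ran from -1.55 to 1.61 on the log2 scale, so that a 2-fold difference either way was not detectable.

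Ligands linked to IL-4 and dendritic cells were near the limit of counting. Ccl22, which attracts Ccr4-positive T cells, had 12, 12 and 16 counts in PKM2FL/FL and 39, 21 and 16 counts in PKM2ΔMAC. On the CPM scale the lowest PKM2ΔMAC library, at 0.322, was barely above the highest PKM2FL/FL library, at 0.315. The log2 fold change was 0.90 (SE 0.44, 95% interval -0.10 to 1.90, adjusted p = 0.549) and 0.46 without PKM2ΔMAC replicate 1. Ccl24, an eosinophil attractant made by IL-4-treated macrophages, had between 8 and 14 counts, and Ccl17 had between 0 and 4. Neither was tested. Dendritic cell markers summed to between 3.32 and 3.97 TPM in a library over 6 genes, and none was called.

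Several ligands known mainly from other cells of the marrow were abundant. Cxcl12, which holds stem cells and neutrophils in the marrow through Cxcr4 and is made in quantity by marrow stroma, was at 605, 798 and 816 CPM in PKM2FL/FL and at 707, 557 and 776 CPM in PKM2ΔMAC. The genotypes overlapped, and the log2 fold change was -0.12 (SE 0.17, 95% interval -0.54 to 0.30). Cxcl14, which is expressed in epithelia and stroma, was at 9.92, 12.9 and 14.9 CPM in PKM2FL/FL and at 11.2, 23.9 and 8.82 CPM in PKM2ΔMAC. PKM2ΔMAC replicate 2 stood above all other libraries, and without it the log2 fold change of Cxcl14 went from 0.22 to -0.32. The 6 stromal markers, Col1a1 at between 1040 and 1538 TPM among them, summed to between 2032 and 2312 TPM in PKM2FL/FL and between 2264 and 2719 TPM in PKM2ΔMAC. None was at 0. In PKM2ΔMAC replicate 2, where Cxcl14 was highest, the sum was 2264 TPM, with Dcn at its lowest and Pdgfrb at its highest of the 6 libraries. The part of stromal cells in the Cxcl12 and Cxcl14 levels was not tested.

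Ppbp, which encodes platelet basic protein, had 1807, 1215 and 1405 counts in PKM2FL/FL and 2137, 593 and 1588 counts in PKM2ΔMAC. PKM2ΔMAC replicate 2 was far below the other 5 libraries, replicate 1 was the highest, and the log2 fold change was -0.03 (SE 0.50, 95% interval -1.31 to 1.25). The 6 megakaryocyte and platelet markers found in the table summed to 45.7, 33.2 and 35.0 TPM in PKM2FL/FL and to 47.2, 18.4 and 40.9 TPM in PKM2ΔMAC. These sums placed the 6 libraries in the same order as Ppbp TPM did, from PKM2ΔMAC replicate 1 down to PKM2ΔMAC replicate 2. Pf4, which the same cells store, was also highest in PKM2ΔMAC replicate 1 and lowest in replicate 2 on the TPM scale, but ranged only from 131 to 177 TPM. The share of Ppbp and Pf4 that came from such cells was not tested.

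**Figure D4:**
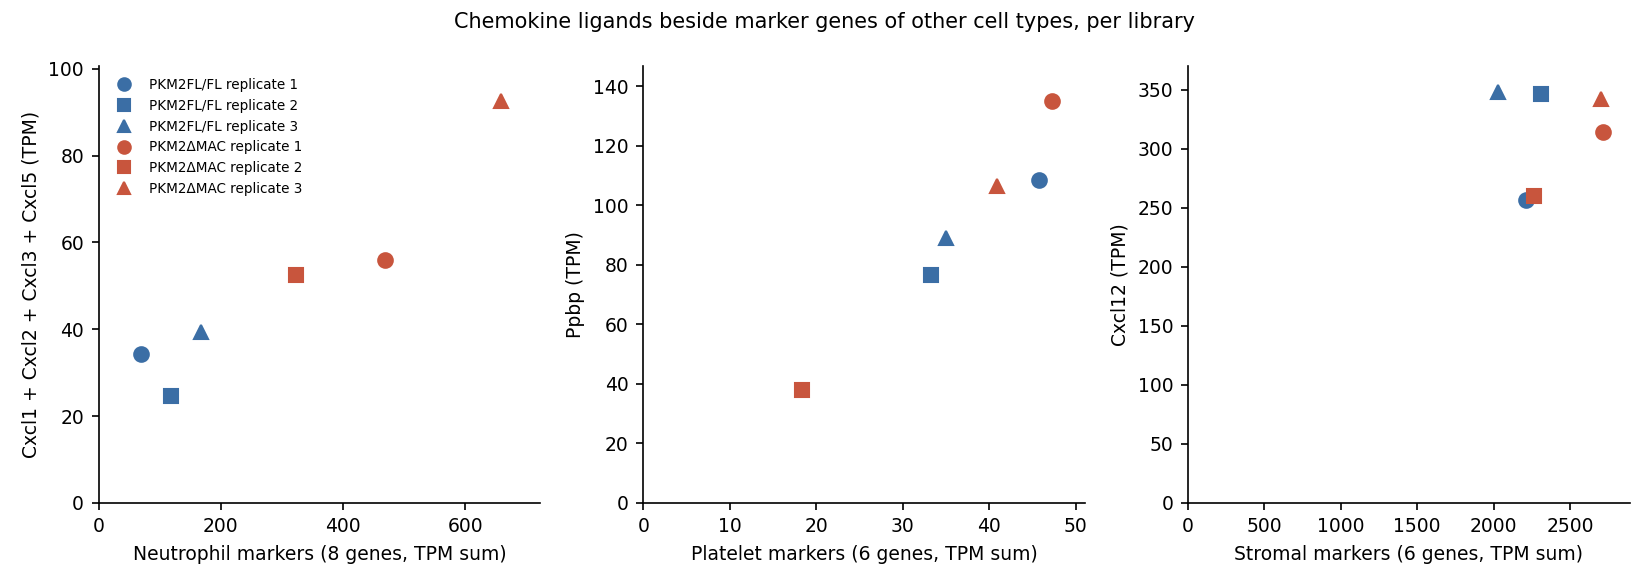
Summed TPM of Cxcl1, Cxcl2, Cxcl3 and Cxcl5 against that of 8 neutrophil markers (left), Ppbp TPM against that of 6 platelet markers (middle) and Cxcl12 TPM against that of 6 stromal markers (right), 1 point per library. The PKM2ΔMAC libraries lie at the right of the left panel, at marker sums of 323 to 659 TPM, and PKM2ΔMAC replicate 2 is lowest on both axes of the middle panel.

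Cx3cl1, the membrane-bound ligand of Cx3cr1, was steady at 6.37, 7.33 and 7.67 CPM in PKM2FL/FL and 6.95, 6.72 and 6.87 CPM in PKM2ΔMAC, with a log2 fold change of -0.06 (95% interval -0.30 to 0.19). Ccl25, a thymic and intestinal ligand of Ccr9, had 255, 187 and 159 counts in PKM2FL/FL and 222, 286 and 201 counts in PKM2ΔMAC. Its genotypes overlapped, and Elavl1 exons on the other strand cover part of it. Ccl27a, a skin ligand of Ccr10, was at 1.52, 1.52 and 1.59 CPM in PKM2FL/FL and at 1.51, 1.95 and 2.13 CPM in PKM2ΔMAC. Its counts are uncertain, since 69.2% of its 50-base stretches also occur in Gm13306, Gm20878, Gm21586 or Gm21953 and Il11ra1 overlaps it. Cxcl15, known from lung epithelium, had between 3 and 23 counts. The untested Cxcl13, Xcl1, Cxcl17, Ccl11 and Ccl28 had at most 16 counts in any library. Cxcl17 was at 2, 4 and 2 counts in PKM2FL/FL and 0 in each PKM2ΔMAC library, where 3 counts or more remain possible. Both groups therefore lay at or about the floor, and no fold is given.

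The plot of each library against the PKM2FL/FL mean places PKM2ΔMAC replicate 2 apart in a way that differs between members. Among the 20 members of at least 1 CPM, this library was the lowest of the 6 for Ccl6, Pf4, Ccl8, Cxcl12 and Ppbp and the highest for Ccl9, Ccl7, Cxcl2, Cxcl10, Cxcl14 and Ccl25. PKM2ΔMAC replicate 3 was the highest for Ccl6, Ccl2, Cxcl5, Cxcl1 and Ccl27a and the lowest for Cxcl16, Ccl3, Ccl4, Ccl5, Cxcl10 and Cxcl14. The median absolute deviation from the group mean over these 20 members was 0.27 on the log2 scale for PKM2ΔMAC replicate 2, 0.20 for replicate 3 and 0.16 for replicate 1. In the PKM2FL/FL libraries it was 0.17, 0.11 and 0.14.

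**Figure D5:**
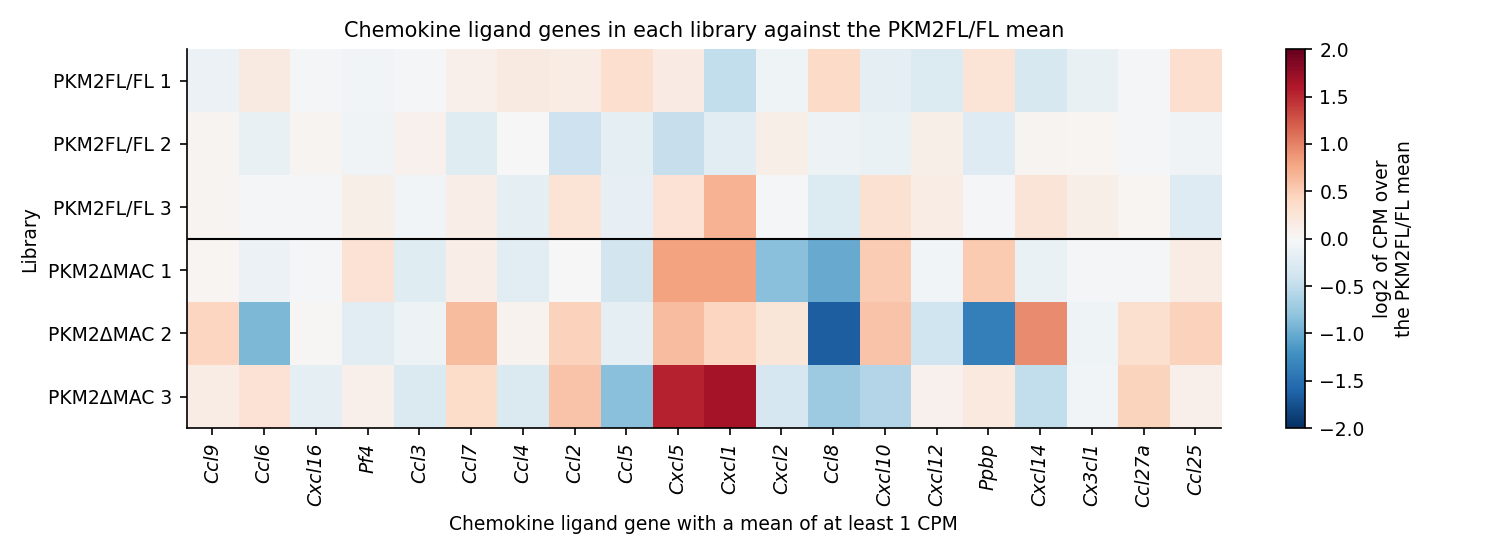
Log2 of the CPM of each library over the PKM2FL/FL mean for the 20 chemokine ligand genes with a mean of at least 1 CPM (rows, libraries; columns, genes; red, above; blue, below). Several genes keep 1 colour over the 3 PKM2ΔMAC libraries, most deeply Cxcl5, Cxcl1 and Ccl8 and more faintly others such as Ccl7, Ccl3 and Ccl5. Ccl6, Ppbp and Cxcl14 stand out in replicate 2 of that genotype.

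Of 22 chemokine receptors and atypical receptors in the table, 17 were tested, and 1 was called higher and 1 lower in PKM2ΔMAC, beside the 0.412% of all genes. Ccr3, an eosinophil receptor whose ligands include Ccl11, Ccl24, Ccl5 and Ccl7, had 302, 302 and 260 counts in PKM2FL/FL and 581, 637 and 603 counts in PKM2ΔMAC, with a log2 fold change of 1.06 (adjusted p = 0.00263, SE 0.10). Cxcr4, the receptor of Cxcl12, had a log2 fold change of -0.33 (adjusted p = 0.0465), and it was called in 5 of 17 alternatives, with adjusted p up to 0.362. Of the other receptors, Cx3cr1 was between 82.2 and 169 TPM, Ccr2 between 49.0 and 84.1 TPM and Ccr1 between 17.1 and 43.8 TPM. Cxcr6, the receptor of the abundant Cxcl16, had between 15 and 34 counts, and none of these 4 was called.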

How the data were processed

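RNA of BMDMs from 3 PKM2FL/FL and 3 PKM2ΔMAC mice was sequenced by the authors with a SMARTER kit, 1 library per mouse. The authors deposited unnormalized counts per gene symbol and TPM values of the same 23935 symbols. The submitters' processing notes name FastQC 0.12.1, Trim Galore 0.6.10, HISAT2 2.2.1, SAMtools 1.19.2, Subread 2.0.6 and build mm10, without settings. Counts between 1 and 10 were even in 70.9% to 72.1% of cases, and high ones in 48.9% to 50.6%, so both ends of most read pairs appear to be counted and low counts carry more counting error than their size shows. Columns were matched to mice by genotype and number.

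Counts were compared with edgeR 4.0.16 (R 4.3.3, limma 3.58.1): a filter on low counts (filterByExpr) leaving 16516 genes, TMM factors (0.980 to 1.04), robust quasi-likelihood fit with genotype as the only term, and Benjamini-Hochberg adjustment over all tested genes, with calls at an adjusted p under 0.05. SE is the absolute log2 fold change over the square root of F. CPM values are scaled by TMM. The functions were tested on simulated counts. Members were given by library where the mean was at least 1 CPM and otherwise mainly by counts. Receptors were named at a mean of at least 1 CPM or an adjusted p under 0.05, or where a ligand's result refers to them. The members and all gene lists were chosen with earlier results of these data known. The CC ligands Ccl1, Ccl19, Ccl20, Ccl21a to Ccl21d, Ccl26 and Ccl27b were not analysed here. Some receptors and sequences are not reported here. Positions are from GENCODE M21 (GRCm38), in which all 33 members were found, and promoters from RefSeq (GRCm38.p6). Mouse numbers were not taken as pairs. Alternatives were RLE or upper-quartile factors, other filters, DESeq2 1.42.0, a replicate block, down-sampling, limma-trend on log2(TPM + 1) or log2(TPM + 0.1), each library left out, and, added after seeing the data, halved counts.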

Additional observations from a re-analysis of the deposited data

How the results depend on the processing

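Over 17 alternatives, 16 of the 26 tested members kept their direction wherever they were tested (Ccl22 in 14 and Cxcl3 in 15 of them) and 3 of 427 pairs of member and alternative were called. The number of members called was 0 except for 1 in DESeq2 (Ccl8), 1 with the replicate block (Cxcl5) and, on leaving out a library, 0 to 1 (Ccl3, without PKM2ΔMAC replicate 2). Over all genes, 120 were called with no filter, 289 in DESeq2, 41 and 36 with limma-trend on log2(TPM + 1) with and without a filter, 32 on log2(TPM + 0.1), and 22 to 299 on leaving out a library, against 68. PKM2ΔMAC replicate 2 gave the 299, and leaving out a PKM2FL/FL library gave 22 to 27. Halved counts gave 63 genes and 0 of 23 members tested. The cause was not tested.

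The log2 fold changes of 2 members reversed on TPM, to 0.016, 0.019 and 0.016 for Cx3cl1 and 0.012, 0.012 and 0.012 for Cxcl16. Those of 8 reversed only when a library was left out, with ranges of -0.47 to 0.090 for Ccl6, -0.33 to 0.89 for Cxcl11, -0.25 to 0.0049 for Cxcl12, -0.32 to 0.48 for Cxcl14, -1.87 to 0.046 for Cxcl15, -0.035 to 0.44 for Cxcl9, -0.048 to 0.20 for Pf4 and -0.41 to 0.35 for Ppbp. Leaving out 1 library moved the fold changes of 13 more members by over 1.5 times, such as Cxcl1 (0.57 to 1.48), Ccl22 (0.46 to 1.11), Ccl5 (-0.62 to -0.28) and Ccl7 (0.25 to 0.49), and those of Ccl3, Ccl8, Ccl12, Cxcl3 and Cxcl5 by less. In the replicate block, 82 genes were called. Deviations of same-numbered mice correlated at 0.157, 0.254 and 0.040, so the numbers were not taken as pairs, although 5 of 6 libraries correlated best with their own number. With 3 mice per genotype, 13 members had intervals that reach a 2-fold change.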
